A study of Mus musculus with 7 samples.

Results

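The 10 circadian clock genes described here are Arntl, Npas2, Per1, Per2, Per3, Cry1, Nr1d1, Nr1d2, Dbp and Ciart. They were taken by symbol from a table of 24328 genes measured by RNA-seq in mouse kidney. All 10 were found, and all 10 passed the filter on low values, a mean of at least 5 normalized counts over the 4 mice, which 17283 genes passed.

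Kidneys of 3 LBR-null mice and 1 wild-type (WT) littermate were compared. LBR, the lamin B receptor, sits in the membrane around the nucleus and holds condensed chromatin at its edge. LBR-null mice were homozygous for the loss-of-function allele ic-J (Lbr ic-J/ic-J), and the WT mouse was Lbr+/+. All mice were C57BL/6J, 4 weeks old, and kept on the same chow and light/dark cycle. The allele is carried in every cell of the body, so the kidney is not the only organ that lacks LBR. The right kidney was flash-frozen and pulverized whole, and polyadenylated RNA was sequenced. Mice 4001, 4007 (LBR-null) and 4009 (WT) gave 2 libraries each, and mouse 4002 (LBR-null) gave 1. The hour at which the kidneys were collected is not given in the sources used here, so the part of collection time in the values below was not tested.

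The mammalian clock is a loop of transcription and repression that runs in nearly every cell, the kidney tubule included. BMAL1, the product of Arntl, pairs with CLOCK or NPAS2 and activates genes that carry E-boxes, among them the Per and Cry genes, Nr1d1, Nr1d2, Dbp and Ciart. PER and CRY proteins then repress that activation, and the nuclear receptors REV-ERBα (Nr1d1) and REV-ERBβ (Nr1d2) repress Arntl, Npas2 and Cry1 through ROR response elements (ROREs). DBP is an output factor that activates genes with D-boxes. In mouse peripheral tissues Arntl and Dbp RNA peak at opposite times of the day, and in the kidney the clock is known for its daily control of sodium and water transport.

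The sequences below show where these 3 kinds of element stand at the members' start sites, because these elements define the arms of the loop. RefSeq promoter windows (GRCm38.p6), from 250 bases before to 50 bases after a gene's start, were matched by symbol for 9 members (all but Per2) in 11 windows, and both strands were searched. The E-box was searched as CACGTG. The related E′-box was searched as CACGTT, so that it can appear below in the letters of the other strand. The D-box was searched as TTATGNAA. The RORE core was searched as TAGGTCA and also, with its other allowed letter, as TGGGTCA. No matches overlapped. Capitals mark the match, and each sequence runs 5′ to 3′ on the strand of its gene. Ciart, which encodes a repressor of CLOCK and BMAL1, had 3 E-boxes in its window (chr3:95882252-95882359, minus strand).
Ciart: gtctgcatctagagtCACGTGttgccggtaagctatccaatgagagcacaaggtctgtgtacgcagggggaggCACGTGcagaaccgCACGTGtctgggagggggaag
Cry1 had an E′-box 79 bases and an E-box 60 bases before its start (chr10:85185094-85185148, minus strand).
Cry1: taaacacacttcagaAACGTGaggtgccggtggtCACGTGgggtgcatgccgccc
Per1 had, before the first of its 2 listed starts, an E-box at 166 bases (chr11:69098768-69098803, plus strand) and a D-box at 24 bases (chr11:69098910-69098947).
Per1, E-box: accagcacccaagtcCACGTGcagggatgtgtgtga
Per1, D-box: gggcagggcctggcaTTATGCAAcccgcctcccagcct
Nr1d1 had an E′-box 28 bases before its start (chr11:98775385-98775420, minus strand).
Nr1d1: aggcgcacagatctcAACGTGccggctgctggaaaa
Per3 had 2 D-boxes, 205 and 158 bases before its start (chr4:151044801-151044885, minus strand).
Per3: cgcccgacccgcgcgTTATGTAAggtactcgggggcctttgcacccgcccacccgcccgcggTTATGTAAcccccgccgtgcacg
Arntl had a RORE core 31 bases after the second of its 2 listed starts (chr7:113207530-113207558, plus strand).
Arntl: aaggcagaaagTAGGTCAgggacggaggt

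The E-box letters stood in the windows of 3 members (Ciart, Cry1 and Per1) and in 7.15% of all 32851 windows. At least 3 copies, as in Ciart, were found in 29 of all windows (0.0883%). The E′-box letters stood in 2 members (Cry1 and Nr1d1) and in 4.68% of all windows. The D-box letters stood in 2 members (Per1 and Per3) and in 3.38% of all windows, and 53 windows (0.161%) held at least 2 copies, as in Per3. The RORE core stood in 1 member (Arntl) and in 6.45% of all windows. In the windows of Npas2, Nr1d2 and Dbp none of the 4 motifs was found. A match is a match of letters in this window and was not measured as a binding site in these mice.

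The libraries held 20694016 to 26333284 reads on genes, and 1 read was worth 0.787 to 1.15 normalized counts, the unit of all levels below. A member had from 64 reads (Npas2) to 4189 reads (Per1) in a library. Lbr itself was at 322 (4001), 340 (4002) and 472 (4007) normalized counts, against 398 in the WT mouse, so its RNA level did not separate the genotypes. Xist, expressed from the inactive X chromosome, was at 5785 (4001), 65.3 (4002) and 9940 (4007) normalized counts, against 35.5 in the WT mouse. The Y-linked Ddx3y was at 141 (4001), 1516 (4002) and 44.3 (4007), against 1284 in the WT mouse. Mice 4001 and 4007 thus differed from the WT mouse in these sex-linked genes, and mouse 4002 was near it. The part of sex in the values below was not tested. Mouse 4001 had Ddx3y above the level of mouse 4007 beside its high Xist, and the muscle gene Ckm stood at 579 there against 10.6 to 19.2 in the other mice. The liver gene Alb was at 8759 in mouse 4001 against 1546 to 2245 in the other mice. Whether RNA of another tissue or animal is in the libraries of mouse 4001 was not tested. Adjusted results are therefore also given without mouse 4001 for Arntl, Npas2, Cry1, Per1, Per3 and Dbp and for the counts of each list. In mouse 4002 alone, the log2 differences from the WT mouse were 1.68 for Arntl, 1.23 for Npas2, 1.56 for Cry1, 0.65 for Per1 and -2.21 for Dbp. The kidney markers of the proximal tubule lay below both WT libraries in all 5 LBR-null libraries for 4 of 4 genes, with a summed level of 27913 to 39217 against 97354 to 99425. Neutrophil markers were higher for 6 of 7 measured genes, with sums of 396 to 2600 against 76.9 to 84.3, macrophage markers were lower for 4 of 4 (1602 to 1783 against 2428 to 2438), and adipocyte markers were lower for 3 of 3 (22.4 to 106 against 408 to 438). The summed levels also did not overlap for podocyte markers (1721 to 5326 against 6228 to 6342, 2 of 3 genes lower). The same held for distal convoluted tubule markers (12908 to 25044 against 25654 to 25876, 2 of 3 lower). It also held for liver markers (9161 to 25442 against 5516 to 5726, 1 of 3 higher). Adrenal cortex sums did not overlap either (156 to 216 against 119 to 132, 2 of 4 higher). Star, at 143 to 207 against 114 and 128, made up most of the adrenal cortex sums. Cyp11b1 was at 3.44 in library 1 of mouse 4001 and at 0 in every other library, LBR-null and WT. The part of these cell types in the clock genes' values was not tested. In whole kidney RNA, fewer cells of a type and less RNA per cell cannot be told apart.

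Arntl, Npas2 and Cry1 were each more than 2-fold higher in LBR-null than in WT kidney, Dbp was more than 4-fold lower, and Per1 was higher to a lesser degree. For Per2, Per3, Nr1d1, Nr1d2 and Ciart the LBR-null and WT libraries overlapped. In limma's test over all genes, 0 of the 10 members had a Benjamini-Hochberg adjusted p under 0.05 with a 2-fold change, as did 0.0% of all genes tested. At an unadjusted p under 0.05, 4 members were higher (Arntl, Npas2, Per1 and Cry1, against 10.7% of all genes) and 1 was lower (Dbp, against 8.05%). By the means of mice, 3 members were at least 2-fold higher (14.5% of all genes) and 1 was at least 2-fold lower (7.04%). Every LBR-null library lay above both WT libraries for 4 members (25.5% of all genes) and below both for 1 (25.7%). The median log2 difference was -0.01 over the members and 0.01 over all genes.

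**Figure D1:**
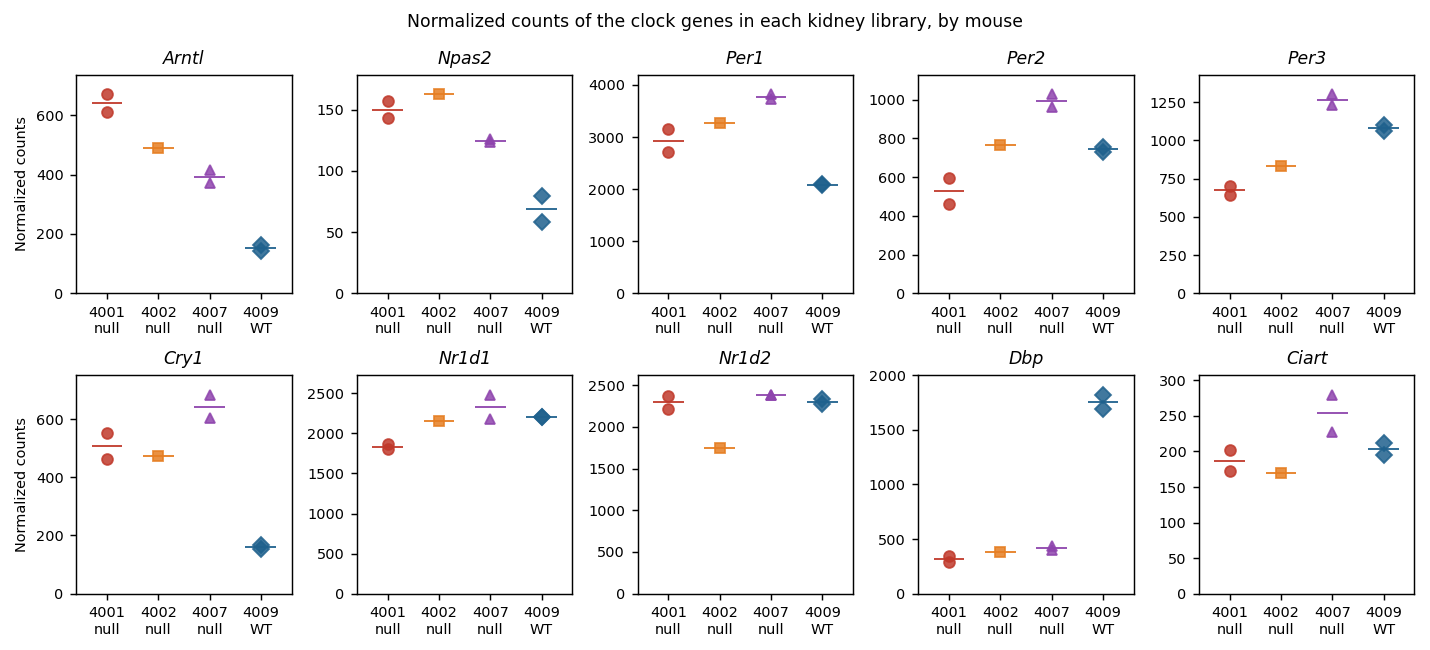
Normalized counts (y axis, from 0) of the 10 clock genes, one panel per gene, in the 7 libraries by mouse (x axis), with a line at each mouse's mean. Arntl, Npas2, Per1 and Cry1 lie above the WT mouse 4009 in every LBR-null library, Dbp lies below it in every one (293 to 439 against 1693 and 1821), and in the other 5 panels the groups overlap.

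Among the activators, Arntl (chr7:120350979-120457636 in mm9, plus strand) encodes BMAL1, without which the loop does not run. Its libraries read 612 and 670 normalized counts in mouse 4001, 490 in mouse 4002, and 371 and 415 in mouse 4007, against 161 and 143 in the WT mouse. All 5 LBR-null libraries were thus higher than both WT libraries, with mouse 4001 the highest. The LBR-null mean was 508 ± 125 (SD, n = 3 mice) against 152, a 3.34-fold difference in level. On the log2 scale the difference was 1.70 with a standard error of 0.34 (limma, Benjamini-Hochberg adjusted p = 0.103). Adjusted p ranged from 0.00126 to 0.245 over the alternatives and was 0.0221 in limma without mouse 4001.

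Npas2 (chr1:39250576-39420079), which encodes a partner of BMAL1 that can stand in for CLOCK, was the least abundant member. It read 157 and 143 in mouse 4001, 163 in mouse 4002, and 124 and 126 in mouse 4007, against 79.5 and 57.9 normalized counts in the WT mouse. The groups did not overlap, although the WT libraries themselves differed by 0.45 on the log2 scale, the widest gap between libraries of 1 mouse for any member. The mean was 146 ± 19.2 (SD, n = 3 mice) against 68.7, a 2.12-fold difference. The log2 difference was 1.07 with a standard error of 0.35 (limma, adjusted p = 0.176, with a range of 0.0862, without mouse 4001, to 0.501 over the alternatives).

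Of the repressors that act on CLOCK and BMAL1, Cry1 (chr10:84594447-84647799, minus strand), a strong repressor whose RNA peaks late in the cycle, differed most. It read 552 and 462 normalized counts in mouse 4001, 472 in mouse 4002, and 684 and 602 in mouse 4007, against 167 and 152 in the WT mouse. Every LBR-null library was above both WT libraries, and here mouse 4007, not 4001, was the highest. The mean was 541 ± 90.3 (SD, n = 3 mice) against 159, a 3.39-fold difference. This was 1.74 on the log2 scale with a standard error of 0.29 (limma, adjusted p = 0.0906). The adjusted p in limma was 0.0171 without mouse 4001, 0.0355 without mouse 4002 and 0.287 without mouse 4007, the highest over the alternatives, and the lowest was 0.000138 in DESeq2.

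Per1 (chr11:68908719-68923462, plus strand), a PER repressor that also responds directly to outside signals such as glucocorticoids, was higher by a smaller margin. It read 2711 and 3147 in mouse 4001, 3278 in mouse 4002, and 3724 and 3818 in mouse 4007, against 2079 and 2098 normalized counts in the WT mouse. The groups did not overlap. The mean was 3326 ± 423 (SD, n = 3 mice) against 2088, a 1.59-fold difference. On the log2 scale it was higher by 0.66 with a standard error of 0.26 (limma, adjusted p = 0.242, with a range of 0.0761, without mouse 4001, to 0.689 over the alternatives).

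Per2 (chr1:93312561-93355907, minus strand), which encodes another PER repressor, had LBR-null mice on both sides of the WT mouse. It read 463 and 594 in mouse 4001, 764 in mouse 4002, and 1026 and 962 in mouse 4007, against 753 and 732 normalized counts in the WT mouse. Mouse 4001 was below both WT libraries and mice 4002 and 4007 were above both. The mean was 762 ± 233 (SD, 3 mice) against 742. The limma difference, taken between averages of log2 values, was -0.01 with a standard error of 0.38 (adjusted p = 0.992), so the sign depends on the scale of averaging.

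Per3 (chr4:150377761-150418774, minus strand), the PER gene whose loss leaves the clock largely running, showed the same order of mice. It read 644 and 701 in mouse 4001, 836 in mouse 4002, and 1231 and 1301 in mouse 4007, against 1061 and 1104 normalized counts in the WT mouse. Mice 4001 and 4002 were below and mouse 4007 was above both WT libraries. The log2 difference was -0.28 with a standard error of 0.38 (limma, adjusted p = 0.734, and 0.889 without mouse 4001). Within libraries, the log2 ratio of Per1 to Per2 was 2.48, 2.10 and 1.92 in mice 4001, 4002 and 4007 and 1.49 in the WT mouse. The exact two-sided permutation p of this difference of 0.68 was 0.25, the smallest that 4 arrangements of the mice can give. The ratio of Per3 to Per2 differed by -0.26 (exact permutation p = 0.5).

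Ciart (chr3:95682426-95686174, minus strand), the gene with 3 E-boxes shown above, read 202 and 172 in mouse 4001, 170 in mouse 4002, and 227 and 280 in mouse 4007, against 212 and 194 normalized counts in the WT mouse. The groups overlapped, and the log2 difference was -0.02 with a standard error of 0.35 (limma, adjusted p = 0.985).

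Nr1d1 (chr11:98629246-98636647, minus strand) encodes REV-ERBα, which links the loop to the Arntl gene. It read 1864 and 1801 in mouse 4001, 2155 in mouse 4002, and 2175 and 2483 in mouse 4007, against 2205 and 2206 normalized counts in the WT mouse. Only 1 LBR-null library was above the WT libraries. The log2 difference was -0.07 with a standard error of 0.25 (limma, adjusted p = 0.909).

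Nr1d2 (chr14:19036568-19071641, minus strand) encodes REV-ERBβ, its near relative. It read 2220 and 2370 in mouse 4001, 1742 in mouse 4002, and 2385 and 2383 in mouse 4007, against 2273 and 2330 normalized counts in the WT mouse. Mouse 4002 stood apart below all others. The log2 difference was -0.12 with a standard error of 0.28 (limma, adjusted p = 0.859).

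Dbp (chr7:52960458-52965525, plus strand), the D-box activator of output genes, had the largest difference of the 10. It read 349 and 293 in mouse 4001, 378 in mouse 4002, and 404 and 439 in mouse 4007, against 1821 and 1693 normalized counts in the WT mouse. The highest LBR-null library was thus far below the lowest WT library. The mean was 374 ± 50.6 (SD, n = 3 mice) against 1757, so the level was 4.70-fold higher in the WT mouse. Its log2 difference was -2.24 with a standard error of 0.27 (limma, adjusted p = 0.0695). The quasi-likelihood test of edgeR on the recovered reads gave an adjusted p of 0.0438 and DESeq2 one of 6.26e-09, while the highest over the alternatives was 0.229, in limma on all genes above 0. In limma without one mouse the adjusted p was 0.00733 (without 4001), 0.0150 (without 4002) and 0.120 (without 4007).

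In edgeR, 1 member passed an adjusted p of 0.05 with a 2-fold change (Dbp, against 0.162% of all genes). In DESeq2, 3 members passed (Arntl, Cry1 and Dbp, against 6.42% of all genes), and the same 3 passed in limma on single libraries with the mouse as a random block (4.9%). That fit counts libraries of 1 mouse as separate samples. The same 3 members passed in limma without mouse 4001 (6.76% of all genes), 2 passed without mouse 4002 (Cry1 and Dbp, 3.62%), and 0 passed without mouse 4007 (0.0%). At an unadjusted limma p under 0.05, 4 members were higher and 1 lower without mouse 4001 (15% and 13.4% of all genes), 2 and 1 without mouse 4002 (12.2% and 8.6%), and 2 and 1 without mouse 4007 (6.12% and 4.29%). With 1 WT mouse, genotype and what is particular to that mouse cannot be told apart.

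**Figure D2:**
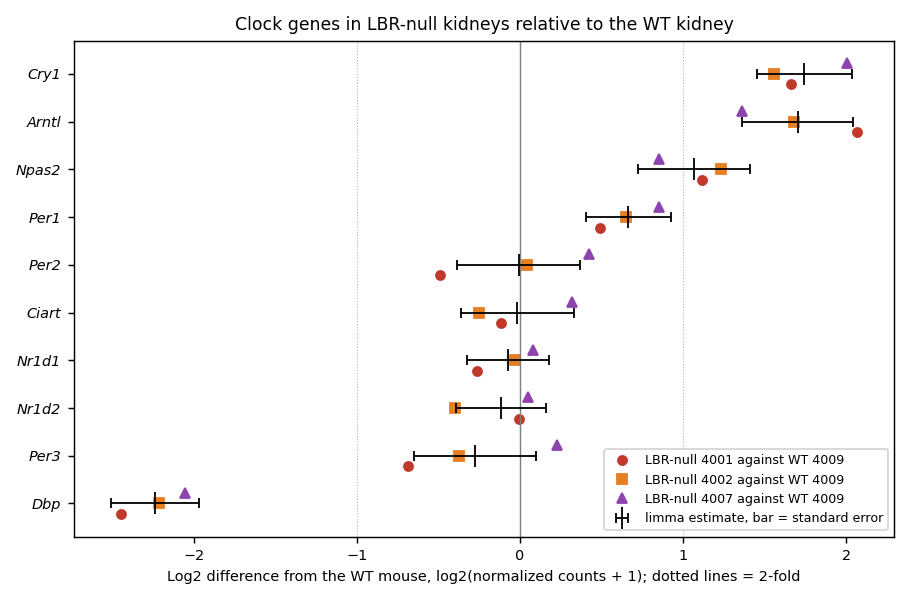
Log2 difference from the WT mouse (x axis, on log2(normalized counts + 1)) for each clock gene (y axis), with coloured points for the 3 LBR-null mice and a black bar for the limma estimate ± its standard error. Cry1 (1.74), Arntl (1.70), Npas2 (1.07) and Per1 (0.66) lie to the right of 0 in all 3 mice, Dbp (-2.24) lies to the left in all 3, and the other 5 genes have mice on both sides of 0.

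The exons of 2 members share bases with a gene on the opposite strand in GENCODE vM1, and whether the counting used strand is not given in the sources used here. Dbp shares 491 bases (16.7% of its exon bases) with Sphk2, which read 1187 to 1448 in the LBR-null and 989 and 1030 normalized counts in the WT libraries. Sphk2 was thus higher where Dbp was lower. Nr1d1 shares 263 bases (8.42%) with Thra, which read 1485 to 1802 in the LBR-null and 1317 and 1344 in the WT libraries. The other 8 members share no exon base with another gene there.

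Ratios of 2 members within a library, each taken on normalized counts + 1, hardly depend on how libraries were scaled, and they set the opposite differences side by side. The log2 ratio of Arntl to Dbp was 0.81 and 1.19 in the libraries of mouse 4001, 0.37 in mouse 4002, and -0.12 and -0.08 in mouse 4007, against -3.49 and -3.56 in the WT mouse. The ratio was thus higher in every LBR-null library, highest in mouse 4001 and lowest in mouse 4007. The difference of 3.95 on the log2 scale (15.4-fold, SD between LBR-null mice 0.55) had an exact two-sided permutation p of 0.25, the smallest the design allows. Cry1 to Dbp differed by 3.98 (15.8-fold) and Npas2 to Dbp by 3.32. Arntl to Nr1d1, an activator gene over its own repressor, differed by 1.78 (3.43-fold), with mouse values of -1.52, -2.13 and -2.56 against -3.85. Arntl to Per2 differed by 1.72 (3.29-fold) and spread most between LBR-null mice, at 0.29, -0.64 and -1.34 against -2.28. Each of these 4 ratios was higher in 3 of 3 LBR-null mice, with an exact permutation p of 0.25.

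**Figure D3:**
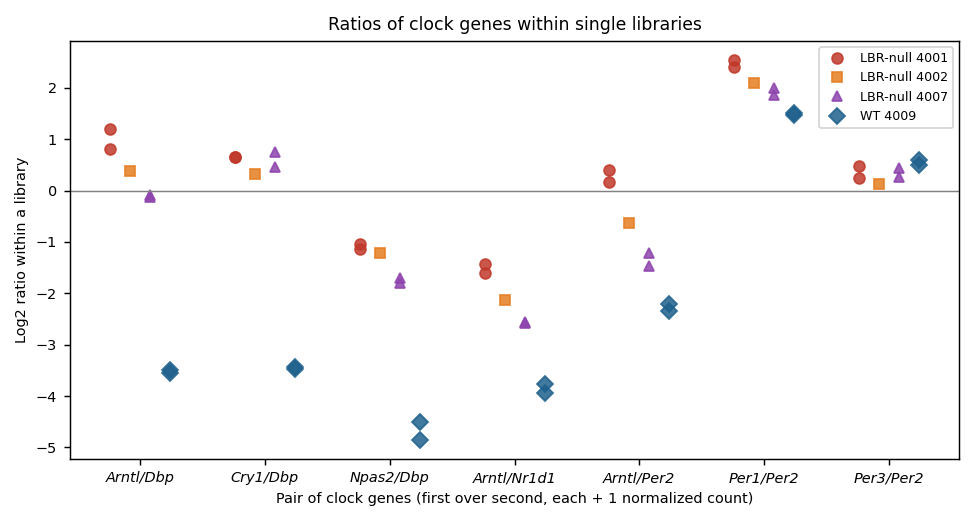
Log2 ratio of 2 clock genes within a library (y axis) for 7 pairs (x axis), each point a library, coloured by mouse. For Arntl/Dbp, Cry1/Dbp and Npas2/Dbp the WT libraries lie more than 2 log2 units below every LBR-null library, while for Per3/Per2 the WT mouse lies at 0.54 and the LBR-null mice between 0.13 and 0.36.

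The members also differed among the LBR-null mice. Between the 3 mice, the log2 range was 0.91 for Per2 and for Per3, 0.71 for Arntl, and 0.35 to 0.57 for the other 7. Libraries of 1 mouse differed by at most 0.09 (Nr1d2) to 0.45 (Npas2). Per1, Per2, Per3, Nr1d1 and Dbp were lowest in mouse 4001, between in mouse 4002 and highest in mouse 4007, an order that 14.9% of all genes had. Arntl alone had the opposite order, which 16.1% of all genes had. Within the LBR-null group, therefore, mouse 4001 combined the highest Arntl with the lowest Dbp, Per1, Per2, Per3 and Nr1d1.

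Levels of different genes were compared per kilobase of exon (union of exons in GENCODE vM1). In the WT kidney the order was Nr1d1 at 706 normalized counts per kilobase, Dbp at 597, Nr1d2 at 460, Per1 at 371, Per2 at 127, Per3 at 113, Ciart at 89.9, Cry1 at 52.9, Arntl at 52.0 and Npas2 at 14.3. With 1 WT mouse this order has no spread, and Cry1 and Arntl were nearly level. In LBR-null kidney, Nr1d1 (674 ± 80.6, SD, n = 3) and Per1 (591 ± 75.2) came first and did not differ beyond their spread. Nr1d2 followed at 427 ± 69.5. Cry1 (179 ± 30.0), Arntl (174 ± 42.8), Per2 (130 ± 39.9), Dbp (127 ± 17.2), Per3 (96.2 ± 31.9) and Ciart (90.1 ± 19.5) followed, and neighbours among these 6 overlapped within 1 SD of both. Npas2 was last at 30.4 ± 4.01. Dbp thus stood second in the WT kidney and among the middle genes in LBR-null kidney.

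The 5 genes most like Arntl across the 7 libraries, by the root mean square distance of centred log2 profiles among 13056 genes, were Trib3 (0.13), Pappa (0.16), Pla1a (0.17), Abca4 (0.19) and Etnk2 (0.19). The nearest members were Npas2 at 0.37 (rank 155) and Cry1 at 0.43 (rank 310). The 5 genes most like Dbp were Nusap1 (0.11), BC089597 (0.12), Gdf10 (0.14), Kif22 (0.15) and Wfdc16 (0.17). No member was near Dbp, the closest being Per3 at 0.93 (rank 4163). The distances describe these 7 libraries, which come from 4 mice.

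Of 19 other genes of the clock and its regulators, 3 were higher and 3 lower at an unadjusted limma p under 0.05, against 10.7% and 8.05% of all genes. After adjustment 0 passed in limma (0.0% of all genes), 1 in DESeq2 (Nfil3, against 6.42%), 0 in edgeR (0.162%) and 1 in limma without mouse 4001 (Nfil3, 6.76%). Nfil3, which encodes the repressor that opposes DBP at D-boxes, was at 574 ± 159 normalized counts (SD, 3 mice) against 159, a log2 difference of 1.80. Rorb, whose product activates at ROREs, had low levels, at 41.0 ± 10.2 against 14.4 (1.41). Cry2, the second cryptochrome gene, was at 918 ± 246 against 428 (1.06). Both were also higher in every LBR-null library, as 25.5% of all genes were. Hlf, a relative of Dbp, was at 1296 ± 110 against 2046 (-0.66), and Timeless was at 143 ± 14.6 against 253 (-0.82). Btrc, whose product marks PER proteins for degradation, was at 628 ± 71.3 against 981 (-0.65), and Fbxl21 was more than 2-fold lower by its means (-1.08) at an unadjusted limma p of 0.0807. Clock and Tef were picked for mention after their values were seen. Clock, the partner of BMAL1, was at 1344 ± 46.4 against 1310, and Tef, another relative of Dbp, was at 5436 ± 822 against 5179. The 3 relatives Dbp, Hlf and Tef thus had log2 differences of -2.24, -0.66 and 0.06.

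Of 15 genes known to follow the clock, 7 were higher (10.7% of all genes) and 2 lower (Coq10b, at -1.07, and Por, named only to complete the count, against 8.05% of all genes) at an unadjusted limma p under 0.05, with a median log2 difference of 0.57. The higher ones included Nampt (1.20), the NAD salvage enzyme, Scnn1a (1.26), the α subunit of the epithelial sodium channel, Lonrf3 (1.15), Klf10 (0.97) and Pdk4 (3.27), a kinase that restrains pyruvate oxidation. Pdk4 spread widely, at 4458 ± 3094 (SD, 3 mice) against 369. Of 10 genes that respond to glucocorticoids, hormones whose level follows the time of day and stress, 7 were higher and 0 lower (10.7% and 8.05% of all genes), with a median of 1.61. The higher ones were Cdkn1a (2.91), Fkbp5 (2.52), Mt2 (2.40), Zbtb16 (2.36), Tsc22d3 (1.22) and Klf9 (1.04), the last pair being in the output list too, and Mt1, at 14489 ± 6033 normalized counts (SD, 3 mice) against 3429. Of 9 genes that respond to temperature, the cold-inducible Cirbp (2.03) and Rbm3 (1.17) were higher and the heat-shock gene Hsph1 (-1.66) was lower, against the same 10.7% and 8.05% of all genes, while Hspa1b (-1.37) was more than 2-fold lower by its means at an unadjusted limma p of 0.0754. The median of that list was -0.50, and 5 of its 9 genes were lower in all 5 LBR-null libraries than in the WT ones (25.7% of all genes). After adjustment 0 genes of these 3 lists passed in limma (0.0% of all genes) and 0 in edgeR (0.162%), while 5 output, 7 glucocorticoid and 3 temperature genes passed in DESeq2 (6.42%). In limma without mouse 4001, 4, 6 and 3 of them passed (6.76% of all genes). Without mouse 4002 the counts were 1, 5 and 2 (3.62%), and without mouse 4007 they were 0, 0 and 0 (0.0%). The part of these responses in the clock genes' values was not tested.

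**Figure D4:**
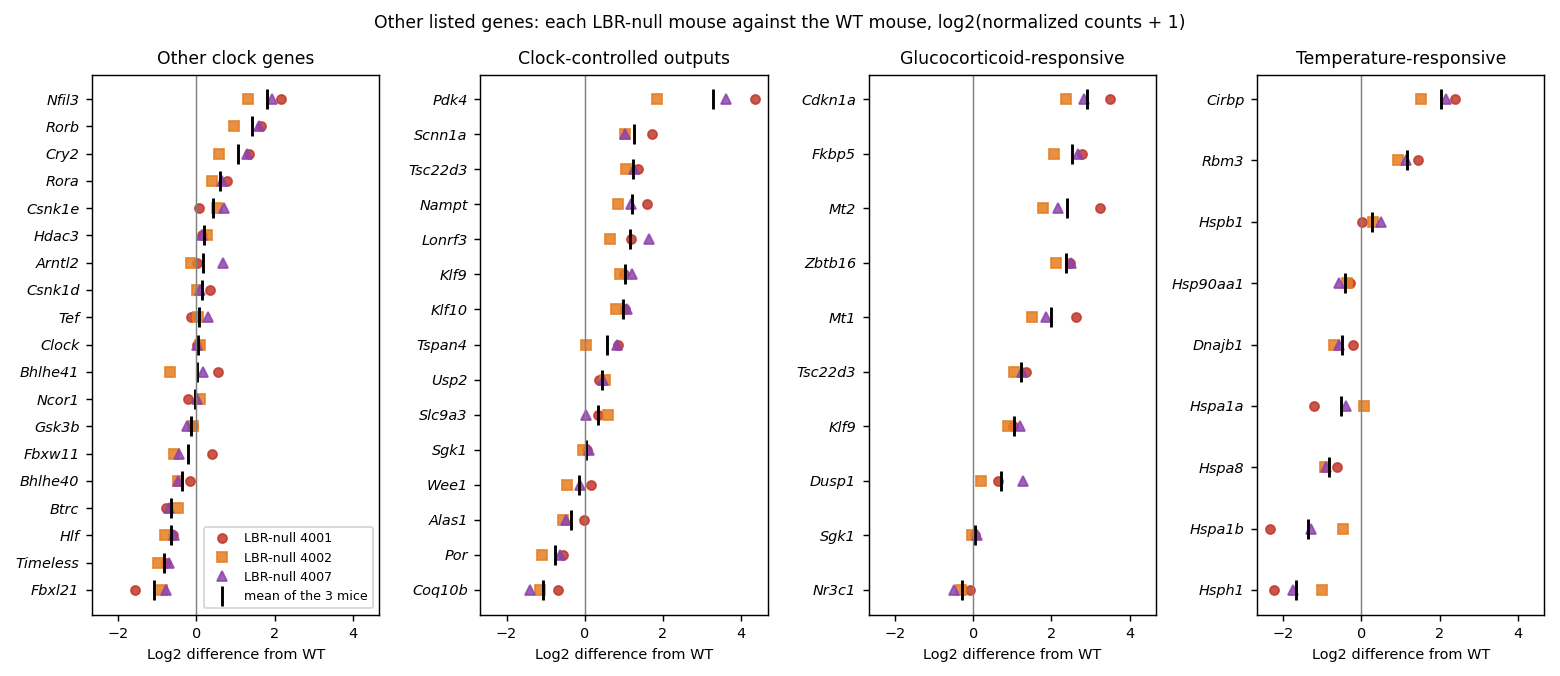
Log2 difference from the WT mouse (x axis, on log2(normalized counts + 1)) for the genes of the 4 other lists (y axis, one panel per list), with coloured points for the 3 LBR-null mice and a black tick for their mean. The glucocorticoid-responsive panel lies mostly to the right of 0 (median 1.61), while in the panel of other clock genes points lie on both sides (median 0.04).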

How the data were processed

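Kidney RNA of 3 LBR-null mice (5 libraries) and 1 WT littermate (2 libraries) was sequenced. Per the labels, the authors used STAR 2.6.0 with the mm9 genome and DESeq2 1.25.1. The deposited values are a normalized signal, namely the read count of a gene over the size factor of its library. The counting program and annotation are not given in the sources used here. All values (100%) were whole reads within 0.01 read, so counts were recovered. Libraries were averaged within a mouse. limma 3.58.1 (R 4.3.3, trended eBayes) was run on log2(mean + 1) for 17283 genes, with Benjamini-Hochberg adjustment and 2 residual degrees of freedom. The spread of the single WT mouse was taken to equal that of the LBR-null mice, which rested on fewer mice when a mouse was left out. On recovered counts summed per mouse, edgeR 4.0.16 called 28 genes and DESeq2 1.42.0 called 1109. The members and lists were chosen with earlier results of these data known. All members are named. The list of other clock genes was counted over 19 genes, after 2 that are not reported here were taken out of it. Listed genes were named when at least 2-fold different or at an unadjusted p under 0.05, up to 8 per list by size, others being marked. The likeness search took genes with a mean of at least 50. The p-values of limma on mouse means rest on the spread between the LBR-null mice, moderated over all genes. They hold no spread between WT mice.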

Additional observations from a re-analysis of the deposited data

Results flagged for a closer look

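A library that stands far from the other LBR-null libraries was searched for in 36 sets of values, namely genes and the Arntl to Dbp ratio. Of these, 4 genes had one. Chance gives about 1 in 20 for independent values, but libraries of 1 mouse are not independent. In each of the 4 it was the single library of mouse 4002, at the low end. Nr1d2 was at 1742 normalized counts there, against 2220 to 2385 in the other 4 LBR-null libraries. Hlf was at 1169 against 1327 to 1386. Rorb was at 29.2 against 44.7 to 50.6. Fkbp5 was at 4266 against 6535 to 7030.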

How the results depend on the processing

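Over 14 alternatives, Arntl (1.52 to 1.87), Cry1 (1.61 to 1.83), Npas2 (0.86 to 1.31) and Per1 (0.57 to 0.75) kept positive and Dbp (-2.33 to -2.13) and Per3 (-0.53 to -0.07) negative log2 differences, and over the 7 alternatives run for it the Arntl to Dbp ratio differed by 3.66 to 4.21. Per2 turned positive in edgeR (0.022), in DESeq2 (0.026) and against WT library 2 alone (0.011), and ran from -0.22 to 0.23 (without mouse 4001) when a mouse was left out. On leaving out a mouse Nr1d1 ran from -0.15 to 0.023 (without 4001), Nr1d2 from -0.20 to 0.023 (without 4002) and Ciart from -0.19 to 0.10 (without 4002; 0.032 without 4001), and Ciart was at 0.045 against WT library 2 alone. Members past an adjusted p of 0.05 and 2-fold numbered 0 in limma, 1 in edgeR, 3 in DESeq2 and 3 with single libraries blocked by mouse, and 0 to 3 when a mouse was left out. Members higher at an unadjusted p under 0.05 numbered 2 to 4 when a mouse was left out (2 without mouse 4002 and 2 without mouse 4007). The shares of all genes higher and lower at that p were 15% and 13.4% without mouse 4001, 12.2% and 8.6% without mouse 4002, and 6.12% and 4.29% without mouse 4007. Other clock genes higher numbered 1 to 5 (5 without mouse 4001, 1 without mouse 4007), and those lower 0 to 5 (5 without mouse 4001, 1 without mouse 4002, 0 without mouse 4007) and 1 with equal totals. Outputs that were lower numbered 0 to 3 (1 without mouse 4002, 0 without mouse 4007) and 1 with all genes above 0. Temperature genes that were lower numbered 2 with equal totals, 2 in edgeR, 2 in DESeq2, 4 in the blocked fit and 1 to 3 when a mouse was left out (3 without mouse 4001, 2 without mouse 4002). For alternatives other than leaving out a mouse, the shares of all genes at that p are not given here, so these counts cannot be set against them. The cause of the changes in the counts was not tested. The median over all genes moved between -0.05 and 0.06. No paired analysis was possible because the replicate numbers count libraries within a mouse and there is 1 WT mouse. With 4 arrangements of the mice, no permutation test can pass 0.05.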
